A study of Mus musculus with 8 samples.

Results

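The interleukin-1 (IL-1) system was followed in leukocytes of healing skin wounds through 8 of the 21755 genes named in the count tables. The genes were taken by name: the ligands Il1a, Il1b, Il18 and Il1f9 (the gene of IL-36 gamma, now called Il36g), the receptor antagonist Il1rn, the signalling receptor chains Il1r1 and Il1rap, and the decoy receptor Il1r2. Wounds through the full thickness of the back skin of male C57BL/6J mice were collected on days 1, 3, 5 and 7, and live CD45+ cells (CD45 marks leukocytes) were sorted for single-cell RNA sequencing. The diabetic wound group had received streptozotocin (STZ), a toxin of insulin-producing cells, at 120 mg/kg at the age of 4 weeks and was entered by raised blood glucose, so it models diabetes by loss of insulin, and the control group was wounded without diabetes. The labels call the strain C57BL/6, and they carry the same STZ protocol text on control and diabetic samples. Each of the 8 libraries, 1 per group and day, pooled the wounds of 5 mice, so no single day has a replicate.

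The IL-1 system starts and limits inflammation in injured skin. IL-1 alpha and IL-1 beta bind IL-1 receptor type 1, which then recruits the accessory chain Il1rap and signals through Myd88 and the Irak kinases to NF-kappaB. IL-1 beta and IL-18 are made as inactive precursors that caspase-1 cuts inside an inflammasome, whereas IL-1 alpha is active as it is made and is released from dying cells. The antagonist Il1rn occupies the receptor without signalling, and the decoy Il1r2 binds the ligands but has no signalling domain. mRNA levels, the only readout here, say nothing of cutting or release.

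Il1a, Il1b, Il1f9 and Il1rn lie on mouse chromosome 2 and Il1r2 and Il1r1 follow each other on chromosome 1. In GRCm38, Il1a spans chr2:129299610-129309972 (minus strand), Il1b chr2:129364570-129371139 (minus), Il1f9 chr2:24186476-24193568 (plus) and Il1rn chr2:24336853-24351494 (plus). Il1r2 spans chr1:40074079-40125231, Il1r1 chr1:40225080-40317257, Il18 chr9:50554827-50581840 and Il1rap chr16:26581704-26730117, all on the plus strand. An antisense gene, Il1bos, overlaps Il1b by 1243 bases, and whether counting used strand is not given in the sources used here, so reads of that stretch may belong to either gene. All 8 genes matched RefSeq's table of promoters (GRCm38.p6). The proximal promoters of the 3 genes whose levels are set against each other as agonists and antagonist are shown as the 160 bases before the start of the transcript, 5′ to 3′ on the gene's strand, with motif matches in capitals.
Il1a, chr2:129309973-129310132, minus strand: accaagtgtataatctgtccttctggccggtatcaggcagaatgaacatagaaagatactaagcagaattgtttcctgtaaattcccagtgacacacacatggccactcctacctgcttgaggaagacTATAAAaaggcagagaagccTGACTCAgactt
Il1b, chr2:129371140-129371299, minus strand: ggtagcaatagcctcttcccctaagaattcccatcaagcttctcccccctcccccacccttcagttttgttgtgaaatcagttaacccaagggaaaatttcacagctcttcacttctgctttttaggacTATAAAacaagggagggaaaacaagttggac
Il1rn, the first of 3 starts, chr2:24336700-24336859, plus strand: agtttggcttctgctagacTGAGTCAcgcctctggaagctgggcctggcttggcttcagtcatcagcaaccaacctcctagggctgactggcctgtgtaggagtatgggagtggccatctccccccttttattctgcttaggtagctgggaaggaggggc

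The capitals mark the letters TATAAA, the core of a TATA box, and TGANTCA, the site bound by AP-1, a factor of activated cells. Il1a held TATAAA at bases -32 to -27 and an AP-1 match at -12 to -6, Il1b held TATAAA at -31 to -26, and Il1rn held an AP-1 match at -141 to -135 and no TATAAA. The last 7 bases shown for Il1rn lie inside the GENCODE gene model, which starts further upstream than RefSeq's. Searched on both strands in the 250 bases before 32851 RefSeq starts, TATAAA stood in 12.4% and TGANTCA in 6.75% of promoters, and no other motif searched overlapped these matches. Of the 8 genes, 3 held TATAAA (Il1a, Il1b and, on the opposite strand, Il18) and 2 held the AP-1 letters. The other motifs searched were TGACGTCA (CRE, in 1.55% of promoters), TTGCNNAA (C/EBP, 9.56%), the ISRE letters (GAAA, any pair of bases, GAAA; 2.98%) and the NF-kappaB consensus (7.25%), of which C/EBP and NF-kappaB matched in Il1r1 and none in the other 7 genes. A match is a description of the letters and not a measured site.

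The tables held 38959 barcodes, of which 35158 (3266 to 5436 per library) had more than 200 genes and under 20% mitochondrial UMIs. A UMI is the molecular tag that counts 1 captured mRNA, and the tables summed to between 19236522 and 33842509 UMIs per library. Cells were clustered without the 8 genes and without the wider IL-1 pathway list, and 17 of 18 clusters were named by marker lists: the myeloid classes were neutrophil-like (13723 cells), macrophage-like (7376), monocyte-like (4676), dendritic-like (2764), osteoclast-like (393) and mast cell-like (147), and the others T cell-like (2459), NK cell-like (539) and fibroblast-like (55), with 3026 cells in 1 cluster without a name. The control library of day 5 stood apart: 28.6% of its barcodes were removed against 1.00 to 10.8% elsewhere, its median depth was 8234 UMIs against 2575 to 5219, and only 7.93% of its cells were neutrophil-like. The neutrophil-like share was 51.3, 49.1, 45.5 and 20.6% of cells on days 1, 3, 5 and 7 in diabetic wounds, against 59.9, 41.2, 7.93 and 23.2% in control wounds. Cells carry running numbers as names, so cells shared between libraries could not be counted. Levels are given as CPM, the UMIs of a gene in every 1000000 UMIs of the library or class, mitochondrial genes left out.

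Neutrophil-like cells held most of the UMIs of 6 of the 8 genes. Of all UMIs of the gene, neutrophil-like cells held 94.4% for Il1f9, 78.7% for Il1rap, 64.5% for Il1r2, 62.8% for Il1a, 59.4% for Il1rn and 57.0% for Il1b. These shares are pooled over libraries of unlike makeup: per library they ran from 81.6 to 96.8% for Il1f9, from 13.8 to 73.9% for Il1rn, from 7.27 to 74.9% for Il1a and from 23.1 to 72.2% for Il1b. Il18 had its largest pooled share, 39.4%, in macrophage-like cells and a further 26.6% in monocyte-like cells. Per library these Il18 shares ran from 5.40 to 77.7% and from 1.13 to 65.7%, so their order is not fixed. Il1r1 was spread over T cell-like (33.0%), monocyte-like (26.2%) and macrophage-like (19.6%) cells. Per library the Il1r1 shares had medians of 26.8, 16.4 and 19.9% in these classes, with the monocyte-like share between 0.747 and 71.6%, so their order is not fixed. UMIs of neutrophil genes were also found in the other classes: the 8 neutrophil markers summed to 14261 to 62971 CPM in neutrophil-like cells and to 315 to 4664 in T cell-like cells, which should lack them. Low levels of neutrophil genes in other classes are therefore given beside the T cell-like level.

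**Figure D1:**
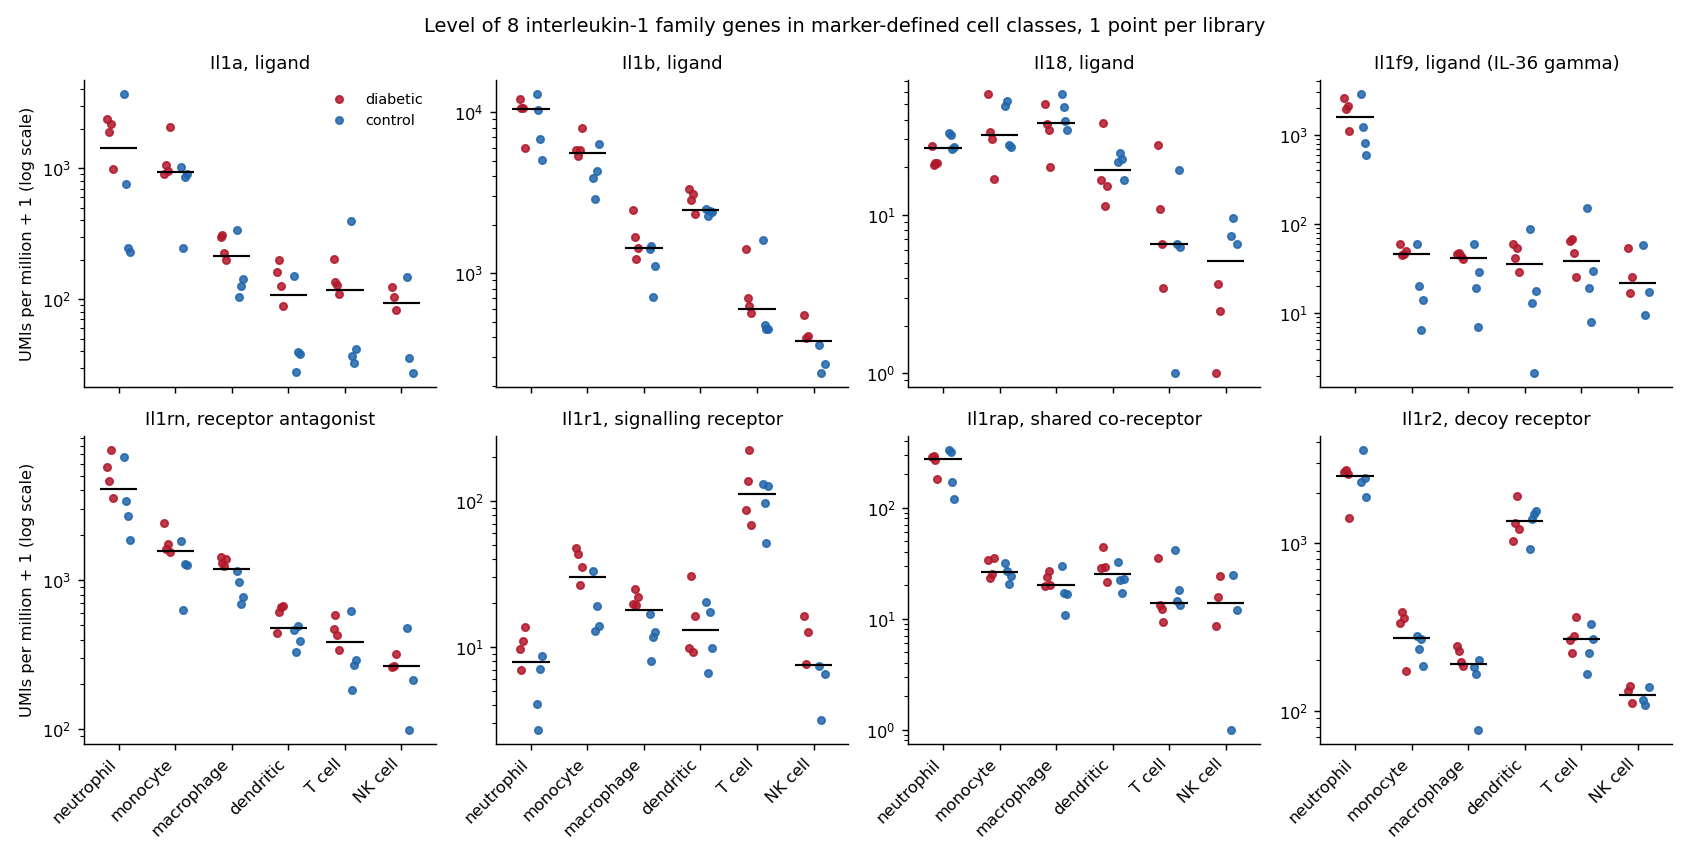
Level of each of the 8 genes in each cell class, in CPM + 1 on a log axis, with 1 point per library that held at least 20 cells of the class. Neutrophil-like medians are the highest for Il1a, Il1b, Il1f9, Il1rap, Il1rn and Il1r2, and the Il1r1 median is highest in T cell-like cells. The Il18 medians of neutrophil-, monocyte-, macrophage- and dendritic-like cells lie between 18.1 and 37.4.

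Il1b, the main secreted IL-1 agonist, was abundant in neutrophil-like and monocyte-like cells and lower in dendritic-like and macrophage-like cells. In neutrophil-like cells it stood at 12046, 10588, 10555 and 6001 CPM on days 1, 3, 5 and 7 in diabetic wounds, against 12993, 10343, 6831 and 5057 in control wounds. Both groups were high on days 1 and 3 and lowest on day 7, and the ranges of the groups overlapped. Monocyte-like cells held 5808, 5337, 5780 and 7925 in diabetic wounds, against 3892, 2867, 4330 and 6309 in control wounds, so the diabetic library was the higher one on each day. On days 5 and 7 the control libraries had 89 and 48 monocyte-like cells, against 572 and 177 in the diabetic ones. Class medians were 10449 in neutrophil-like, 5559 in monocyte-like, 2472 in dendritic-like and 1422 in macrophage-like cells, against 595 in T cell-like cells. Dendritic-like cells were above macrophage-like cells in 8 of 8 libraries, while neutrophil-like cells were above monocyte-like cells in 6 of 8, the exceptions being both libraries of day 7. After thinning each cell to 1000 UMIs, 96.7% of neutrophil-like cells had an Il1b UMI, against 30.2% of T cell-like cells (median depths 2478 and 3912 UMIs). Thinning left out 2.0 to 7.13% of neutrophil-like cells per diabetic library and 0.0925 to 5.86% per control library.

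Il1a, the agonist that is active without cutting, had the widest single-day ratio between the groups in neutrophil-like cells among the 8 genes. Neutrophil-like cells held 2395, 1884, 2188 and 989 CPM on days 1, 3, 5 and 7 in diabetic wounds, against 3711, 753, 244 and 226 in control wounds. The control level was the higher one on day 1 and lay below every diabetic library on days 3, 5 and 7. The ratio of diabetic to control was 0.645 (95% counting interval 0.633 to 0.658) on day 1, 2.50 (2.41 to 2.60) on day 3, 8.97 (7.90 to 10.2) on day 5 and 4.37 (4.08 to 4.67) on day 7. These intervals cover counting error only, and with 1 library per group and day the ratios have no replicate check. The share of neutrophil-like cells with an Il1a UMI at 1000 UMIs was 55.9, 44.2, 45.2 and 37.3% in diabetic and 67.5, 18.5, 13.1 and 14.2% in control wounds, again higher in the control library on day 1 and in the diabetic library on the other days. The control value of day 5 rested on 259 neutrophil-like cells, and on that day these cells held 7.27% of the Il1a UMIs of their library.

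Il1a also separated the neutrophil clusters from each other. The cluster led by Il23a and Ccl3 held a median of 3769 CPM of Il1a, and the cluster led by Igkc and Cxcr2 held 391. In the first of these, the diabetic libraries stood at 3928, 3962, 3610 and 1588 on days 1, 3, 5 and 7 and the control libraries at 5254, 4642, 456 and 1040. Within this cluster the groups were close on day 3 and apart on days 5 and 7, where the control group had 45 and 54 such cells against 1026 and 271. The Cxcr2 cluster held 771, 489, 305 and 477 in diabetic and 1095, 243, 155 and 163 in control wounds. On day 3 the cluster led by Il23a and Ccl3 made up 962 of 2668 neutrophil-like cells in the diabetic library and 221 of 1979 in the control library. The part of this difference in the day 3 level of the whole class was not tested.

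**Figure D2:**
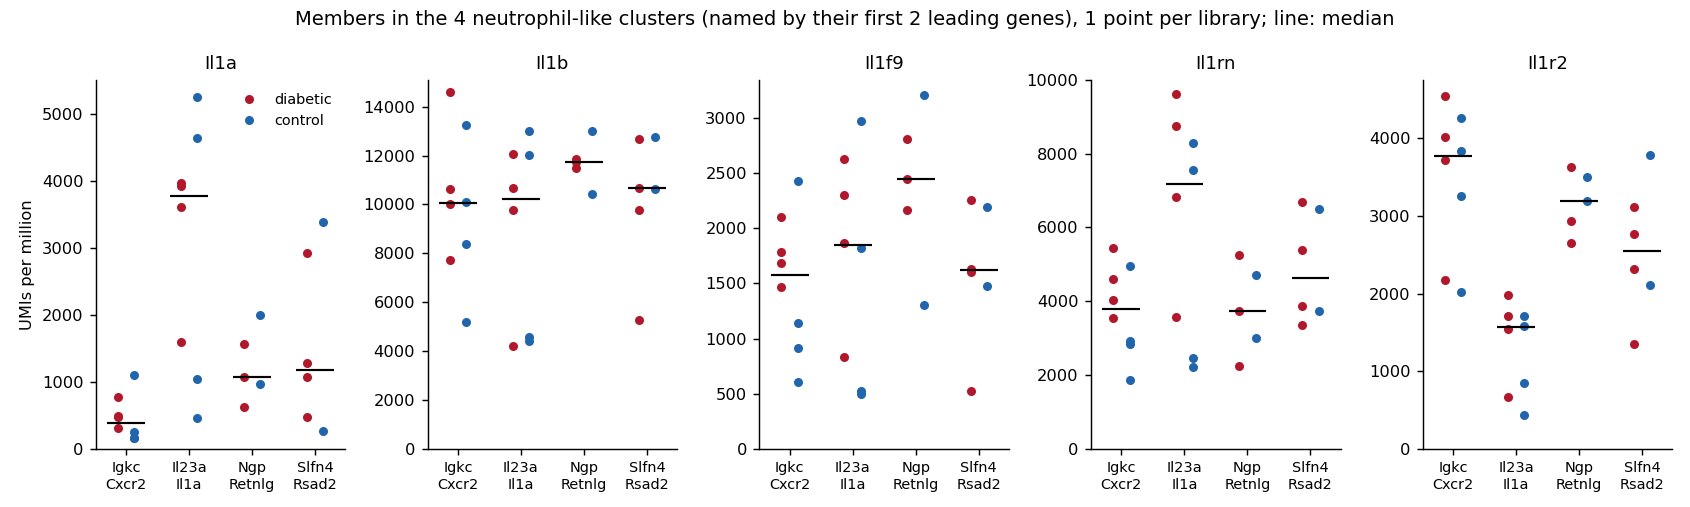
Levels of the genes in the 4 neutrophil-like clusters, in CPM, with 1 point per library and a line at the median. Il1a is high in the cluster led by Il23a and Ccl3, marked Il23a and Il1a on the axis since Il1a itself ranks there (median 3769), and low in the one led by Igkc and Cxcr2 (391), Il1r2 has the opposite order (1566 and 3776), and Il1b has medians between 10063 and 11718 in all 4.

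Il1a in the other classes was lower. Monocyte-like cells held 903, 1065, 958 and 2049 CPM in diabetic wounds, against 1021, 246, 859 and 904 in control wounds, so the groups were close on days 1 and 5. Dendritic-like cells held 160, 198, 125 and 87.1 against 150, 26.7, 38.6 and 37.2, with the diabetic library above the control library on each day, as for 9.43% of the genes with at least 100 UMIs. The T cell-like median of Il1a was 117, against a dendritic-like median of 106. The neutrophil markers in dendritic-like cells stood at 2895, 2197, 1314 and 930 against 2914, 1275, 160 and 1198, so they were also higher in the diabetic library on days 3 and 5, and their part in the Il1a values was not tested. The macrophage-like median was 213.

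Il1f9 (Il36g), an IL-36 agonist that signals through its own receptor with Il1rap, had 94.4% of its UMIs in neutrophil-like cells. Neutrophil-like levels were 2620, 1939, 2078 and 1112 CPM on days 1, 3, 5 and 7 in diabetic wounds, against 2892, 1237, 814 and 589 in control wounds. The control library was higher on day 1 and lower on days 3, 5 and 7, with ratios of 0.906 (0.888 to 0.924), 1.57 (1.52 to 1.62), 2.55 (2.38 to 2.74) and 1.89 (1.80 to 1.98). Monocyte-, macrophage- and dendritic-like medians of 45, 40.9 and 34.6 lay near the T cell-like median of 37.8. In macrophage-like cells the ratio of day 5 was 6.95 (5.17 to 9.31) while the neutrophil markers in the same cells stood at 1422 in the diabetic and 249 in the control library. After thinning, 57.7% of neutrophil-like and 2.73% of T cell-like cells had an Il1f9 UMI.

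Il18, whose product drives interferon gamma in T and NK cells, was a low gene with another pattern. Macrophage-like cells held 49.4, 36.7, 33.3 and 19.0 CPM on days 1, 3, 5 and 7 in diabetic wounds, against 57.4, 46.9, 38.1 and 33.4 in control wounds. Both groups were highest on day 1 and lowest on day 7, and the diabetic library was the lower one on each day. In neutrophil-like cells the diabetic library was again the lower one on each day and both groups were highest on day 1, at 26.4, 19.7, 20.2 and 20.4 against 31.9, 31.0, 25.1 and 25.8. Of the genes with at least 100 UMIs, 12.5% in macrophage-like and 9.46% in neutrophil-like cells were lower in the diabetic library on all 4 days. Macrophage-like levels were above monocyte-like levels in 6 of 8 libraries and above neutrophil-like levels in 7 of 8, so the first of these orders was not settled. The monocyte-like cluster led by the interferon-response genes Ifit2 and Rsad2 had a median of 108, and the interferon-response neutrophil cluster (Slfn4, Rsad2 and Ifit1) one of 62.2. T cell-like and NK cell-like medians were 5.55 and 4.08.

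Il1rn, the antagonist, was highest in neutrophil-like cells, followed by monocyte-like and macrophage-like cells. Neutrophil-like levels were 5739, 4628, 7453 and 3544 CPM on days 1, 3, 5 and 7 in diabetic wounds, against 6722, 3381, 2707 and 1858 in control wounds. The diabetic level peaked on day 5, where the ratio was 2.75 (2.65 to 2.86), and the control level was lower on each later day. On day 5 the cluster led by Il23a and Ccl3, with an Il1rn median of 7182 against 3785 in the Cxcr2 cluster, made up 1026 of 1902 neutrophil-like cells in the diabetic and 45 of 259 in the control library. Within it Il1rn stood at 9615 and 2448 that day, and within the Cxcr2 cluster at 4612 and 2910, and the part of the makeup in the level of the class and in its antagonist share was not tested. Macrophage-like cells held 1422, 1294, 1246 and 1395 in diabetic wounds, against 1144, 966, 691 and 767 in control wounds, and these ranges did not overlap. This class joined a cluster led by Ccl8 and Retnla, with an Il1rn median of 683, and one led by Ms4a7 and Pf4, with 1223. The part of that makeup in the difference between the groups was not tested. Monocyte-like cells held 2413, 1615, 1762 and 1534 against 1842, 635, 1286 and 1260, with overlap between the groups but the diabetic library higher on each day. Here too the control values of days 5 and 7 rested on 89 and 48 cells. The neutrophil markers in monocyte-like cells stood at 3157, 2144, 1263 and 930 against 3075, 1361, 241 and 1034, so they were also higher in the diabetic library on days 1, 3 and 5, and their part in the Il1rn and Il1b levels of these cells was not tested. Class medians were 4086 in neutrophil-like, 1575 in monocyte-like, 1195 in macrophage-like and 477 in dendritic-like cells, against 382 in T cell-like cells.

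The balance of antagonist to agonist was read as the share of Il1rn among the UMIs of Il1a, Il1b and Il1rn, which does not depend on the library total. Over all cells it was 27.4, 26.7, 31.7 and 31.2% on days 1, 3, 5 and 7 in diabetic wounds, against 28.4, 23.9, 37.3 and 30.4% in control wounds. The groups crossed from day to day, and the mean difference of diabetic minus control was -0.720 percentage points (SD of the day-wise differences 3.62, n = 4 days, exact two-sided permutation test of the signs p = 0.75). In neutrophil-like cells the share was 28.4, 27.1, 36.9 and 33.6% against 28.7, 23.4, 27.7 and 26.0%. There the diabetic share was higher on 3 of 4 days, by 5.08 points on average (SD 4.24, n = 4 days, exact two-sided p = 0.25). With 4 days the smallest p this test can give is 0.13 (rounded up), so it cannot pass 0.05. Group means for diabetic and control wounds were 41.5 and 40.2% in macrophage-like and 31.5 and 26.4% in neutrophil-like cells. They were 20.2 and 19.7% in monocyte-like and 16.7 and 14.4% in dendritic-like cells. Single-day differences between the groups reached 9.23 points in neutrophil-like cells (day 5) and 8.07 points in macrophage-like cells (day 7). Whether the classes differed more than the groups was not tested. Over the 5 cell sets compared, the exact p ranged from 0.25 to 0.75.

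**Figure D3:**
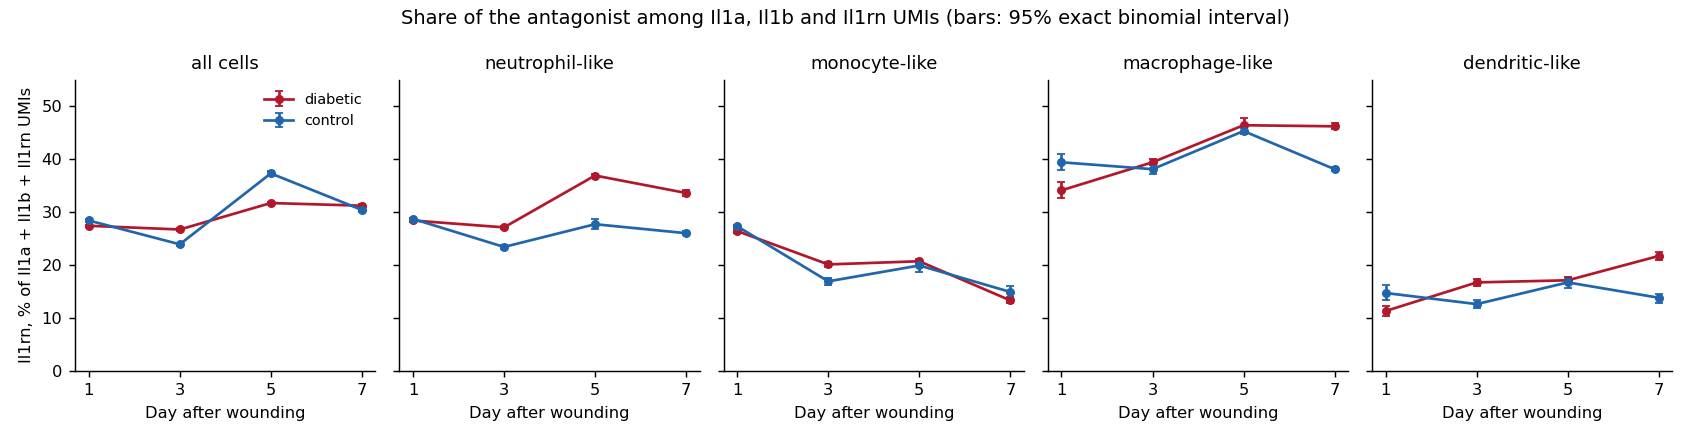
Share of Il1rn among the summed Il1a, Il1b and Il1rn UMIs, in percent, by day for each cell class, with 1 line per group and 1 library per point. Over all cells the lines cross (27.4 to 31.7% diabetic, 23.9 to 37.3% control), while in neutrophil-like cells they part after day 1 (36.9 against 27.7% on day 5).

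Il1r1, the signalling receptor, was scarce in sorted leukocytes and highest in T cell-like cells. T cell-like levels were 86.1, 136, 222 and 67.1 CPM on days 1, 3, 5 and 7 in diabetic wounds, against 130, 96.0, 50.7 and 126 in control wounds, with no order between the groups. T cell-like cells were above neutrophil-, monocyte-, macrophage- and dendritic-like cells in 8 of 8 libraries. The higher level was in the cluster led by Trdc, Il17f and Tcrg-C1, genes of gamma delta T cells that make IL-17, with a median of 238 against 26.6 in the other T cell-like cluster. That cluster held 119, 202, 424 and 232 in the diabetic and 286, 270, 165 and 245 in the control libraries. After thinning, 10.1% of T cell-like and 0.507% of neutrophil-like cells had an Il1r1 UMI.

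In neutrophil-, monocyte- and macrophage-like cells Il1r1 was low and higher in the diabetic library on each day, and in dendritic-like cells it was not. Monocyte-like cells held 46.4, 42.1, 25.6 and 34.4 CPM in diabetic wounds, against 32.4, 11.8, 18.1 and 13 in control wounds. The control values of days 5 and 7 rested on 89 and 48 monocyte-like cells, so at this low level they are imprecise. Macrophage-like cells held 18.8, 23.9, 18.3 and 21.1 against 15.8, 7.06, 10.7 and 11.7, and here the ranges did not overlap. Neutrophil-like cells held 8.62, 5.94, 10.0 and 12.7 against 3.07, 1.71, 6.02 and 7.73, values that rest on 6 to 60 UMIs per library. The diabetic library was thus the higher one on all 4 days in these 3 classes. So it was for 6.82% (monocyte-like), 9.32% (macrophage-like) and 7.59% (neutrophil-like) of all genes with at least 100 UMIs. Over all cells it was also the higher one for Il1r1 (30.6, 26.3, 38.8 and 27.8 against 20.6, 11.9, 12.3 and 20.3). Single-day ratios in macrophage-like cells ran from 1.19 (0.596 to 2.33) on day 1, where the counts could not show a difference, to 3.39 (2.35 to 5.01) on day 3. In dendritic-like cells the groups crossed, at 8.89, 29.5, 8.25 and 15.4 against 19.3, 5.65, 16.5 and 8.87 (12 to 95 UMIs per library), and the estimate of the test described further on was 0.36 ± 0.52 (log2, SE), from -0.37 without day 3 to 0.91 without day 5. Fibroblast-like cells, present at 20 cells or more in 1 library, held 76.8 there.

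Il1rap, the accessory chain shared by the IL-1, IL-33 and IL-36 receptors, was mainly a neutrophil gene in these cells. Neutrophil-like levels were 283, 290, 266 and 180 CPM on days 1, 3, 5 and 7 in diabetic wounds, against 329, 313, 168 and 118 in control wounds. The control library was higher on days 1 and 3 and lower on days 5 and 7, with ratios of 0.861 (0.811 to 0.914), 0.925 (0.864 to 0.990), 1.59 (1.35 to 1.87) and 1.53 (1.36 to 1.72). Medians elsewhere were 25.2 in monocyte-like, 24.5 in dendritic-like and 19.0 in macrophage-like cells, against 12.9 in T cell-like cells, which were the lower ones in 6, 5 and 5 of 8 libraries. At 1000 UMIs 22.7% of neutrophil-like cells had an Il1rap UMI, against 1.28 and 1.30% of T cell-like cells with and without an Il1r1 UMI.

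Il1r2, the decoy, was high in neutrophil-like and dendritic-like cells. Neutrophil-like levels were 2672, 2730, 2570 and 1413 CPM on days 1, 3, 5 and 7 in diabetic wounds, against 2329, 3588, 2461 and 1878 in control wounds. The groups crossed, with ratios of 1.15 (1.12 to 1.17), 0.761 (0.745 to 0.777), 1.04 (1.00 to 1.09) and 0.752 (0.726 to 0.780). Dendritic-like cells held 1030, 1315, 1916 and 1219 in diabetic and 921, 1394, 1485 and 1547 in control wounds, again with overlap. Dendritic-like cells were above monocyte- and macrophage-like cells and below neutrophil-like cells in 8 of 8 libraries, at medians of 1355, 272, 189 and 2515 in that order. The cluster led by Cd209a and Mgl2 had the higher level, with a median of 1500 against 423 in the cluster led by Fscn1 and Ccl22, genes of migratory dendritic cells. At 1000 UMIs 78.9% of neutrophil-like and 54.0% of dendritic-like cells had an Il1r2 UMI, against 19.1% of T cell-like cells. Of 13027 neutrophil-like cells deep enough to thin, 77.1% had both Il1b and Il1r2, against 6.50% of 2308 T cell-like cells. Since nearly every neutrophil-like cell had an Il1b UMI, this share is close to that of Il1r2 alone. An Il1r2 UMI was in 79.7% of neutrophil-like cells with Il1b and in 54.1% of the few without, and in 21.5 and 18.0% of T cell-like cells.

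**Figure D4:**
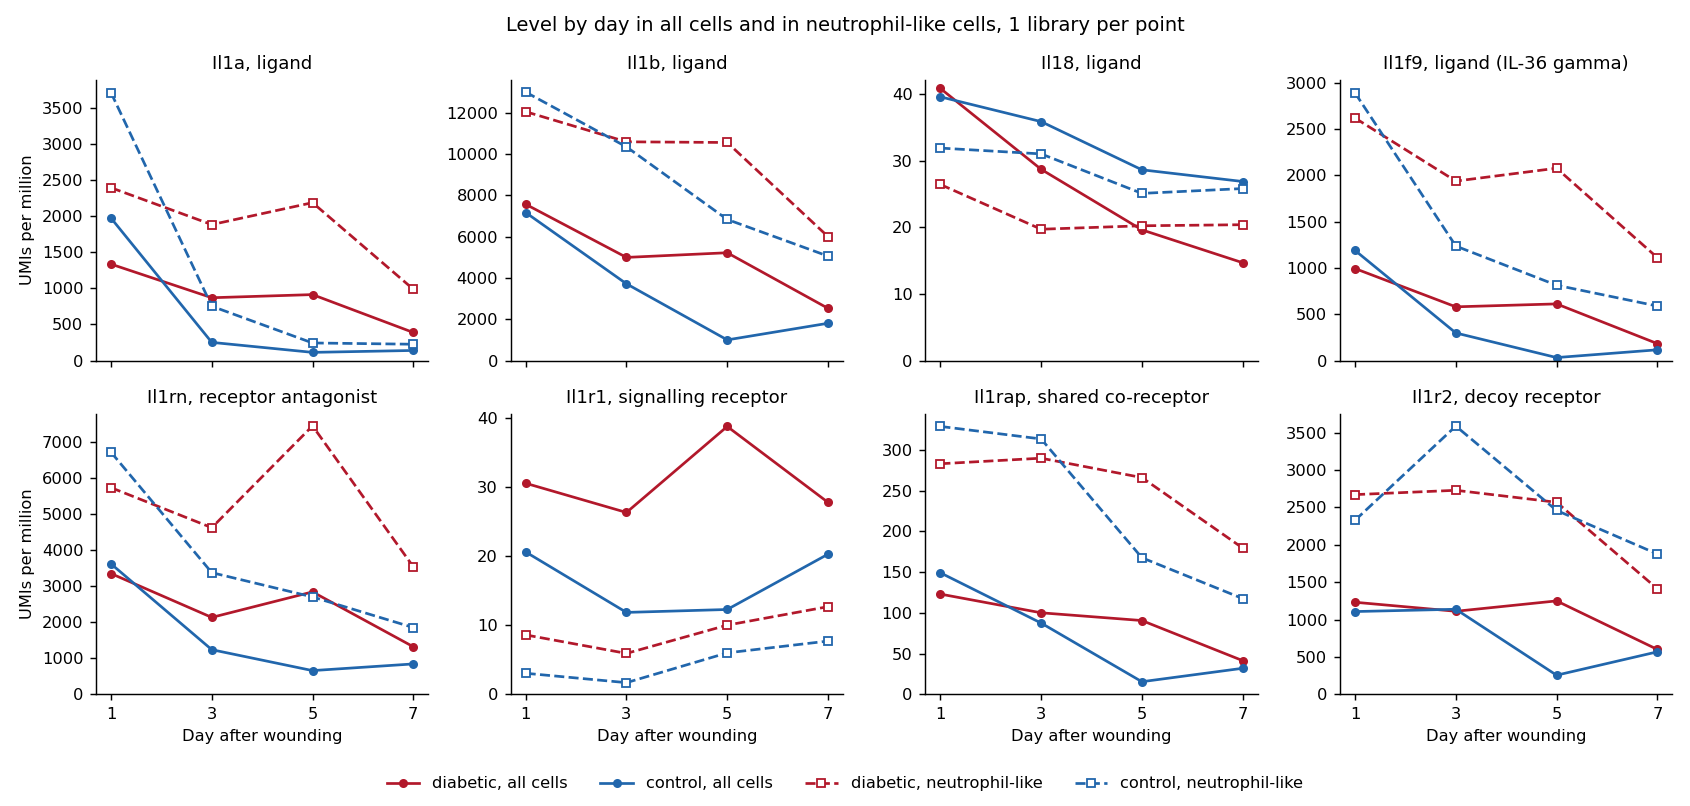
Level of each of the 8 genes by day in all cells and in neutrophil-like cells, in CPM on a linear axis. Each set of cells has 1 line per group, with 1 library per point. In neutrophil-like cells the control Il1a line drops from 3711 to 226 while the diabetic line goes from 2395 to 989, and the Il1r2 lines cross.

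Summed over all cells, the ratio between the groups was farthest from 1 on day 5 for 7 of the 8 genes and on day 7 for Il18. Il1a stood at 1336, 871, 914 and 389 CPM in diabetic and 1974, 252, 114 and 140 in control wounds, Il1b at 7565, 4993, 5219 and 2530 against 7164, 3715, 1001 and 1805, and Il1rn at 3355, 2139, 2847 and 1325 against 3624, 1243, 663 and 848. On day 5 the ratio was 18.9 (17.7 to 20.2) for Il1f9, 8.05 for Il1a, 5.79 for Il1rap, 5.22 for Il1b, 4.85 for Il1r2, 4.30 for Il1rn, 3.15 for Il1r1 and 0.685 for Il18. So 7 of 8 genes were at least 2-fold higher in the diabetic library that day, as were 11.8% of all genes with at least 100 UMIs. In that pair of libraries neutrophil-like cells made up 45.5 and 7.93% of cells, and in neutrophil-like cells themselves 3 of 8 genes (Il1a, Il1rn and Il1f9) passed 2-fold, with 6.42% of the genes with at least 100 UMIs there. In sums over all cells, fewer cells of a class and less RNA per cell cannot be told apart. Il1b and Il1r1 were higher in the diabetic library on all 4 days, with 10.2% of the genes with at least 100 UMIs, and in macrophage-like cells Il1b, Il1rn and Il1r1 were, with 9.32% of such genes there.

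Whether the groups differed over the 4 days was tested with edgeR's quasi-likelihood test on sums per library, with day as a block and Benjamini-Hochberg adjustment over all genes. None of the 8 genes passed an adjusted p of 0.05 in all cells, where 0% of 12905 genes did, and none did in neutrophil-like (0%), monocyte-like (0%), macrophage-like (0.0575%) or dendritic-like cells (0.0109%). At an unadjusted p under 0.05 there were 2, 3, 6, 7 and 2 of the 8 in these sets, where 11.3, 8.73, 5.97, 12.1 and 6.19% of all genes were. DESeq2 called 0, 0, 0, 3 and 0 of the 8, and 0.69, 0.399, 0.127, 1.4 and 0.142% of all genes. With no filter on low counts, edgeR called 0, 2, 5, 6 and 3 of the 8, all higher in diabetic wounds, and 0.00461, 0.726, 0.483, 1.69 and 0.692% of all genes. The estimates leaned to the diabetic side: the median log2 difference of the 8 genes was 0.88 in all cells, 0.55 in neutrophil-like, 0.62 in monocyte-like, 0.59 in macrophage-like and 0.38 in dendritic-like cells, beside medians of 0.02, -0.02, -0.01, -0.01 and 0.00 over all genes. With 1 day left out the median of the 8 ran from 0.39 (without day 5) to 1.14 (without day 1) in all cells, from 0.20 (without day 5) to 0.89 (without day 1) in neutrophil-like, from 0.41 (without day 3) to 0.68 in monocyte-like, from 0.50 to 0.72 in macrophage-like and from 0.19 (without day 3) to 0.62 (without day 1) in dendritic-like cells. Without the day block it was 0.44 in all cells and 0.21 in neutrophil-like cells, where it was 0.25 with cells named singly.

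The values nearest the threshold were in macrophage-like cells. There Il1rn differed by 0.63 ± 0.12 (log2, SE, n = 4 libraries per group, edgeR adjusted p = 0.101), Il1b by 0.55 ± 0.12 (adjusted p = 0.13) and Il1r1 by 0.99 ± 0.23 (adjusted p = 0.154), each higher on 4 of 4 days. With coarser clusters (resolution 0.4) Il1b was at 0.14 ± 0.14 (adjusted p = 0.903) and with cells of at least 500 genes at 0.37, while Il1rn and Il1r1 were at 0.62 and 1.13, and at 0.61 and 1.12. These 3 genes are those that DESeq2 called, with adjusted p of 0.000953, 0.0105 and 0.0336. The class joined a cluster led by Ccl8 and Retnla and one led by Ms4a7 and Pf4. Their medians were 683 and 1223 CPM for Il1rn, 961 and 1656 for Il1b and 11.8 and 14.5 for Il1r1. The part of the cluster makeup in these differences was not tested. The neutrophil markers in macrophage-like cells were 3421, 2373, 1422 and 1079 CPM in diabetic and 2986, 1506, 249 and 1435 in control wounds, so these marker UMIs moved the same way on days 1, 3 and 5, and their part in these differences was not tested. In neutrophil-like cells Il1a had the largest estimate, 1.64 ± 0.62 (adjusted p = 0.534, higher on 3 of 4 days), and it was 0.93 ± 0.48 without day 5 and 0.28 without the day block (0.35 against 1.52 over all cells). Il1r2 was at -0.02 ± 0.29 (adjusted p = 0.984) in neutrophil-like and 0.00 ± 0.13 (adjusted p = 0.999) in dendritic-like cells, and the former turned to 0.14 without day 3 and to 0.06 without day 7. Il18 had negative estimates in all 5 sets (-0.40 ± 0.15 in macrophage-like cells, adjusted p = 0.328), which turned to 0.12 in monocyte-like cells without day 3 and to 0.12 in dendritic-like cells without day 5.

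**Figure D5:**
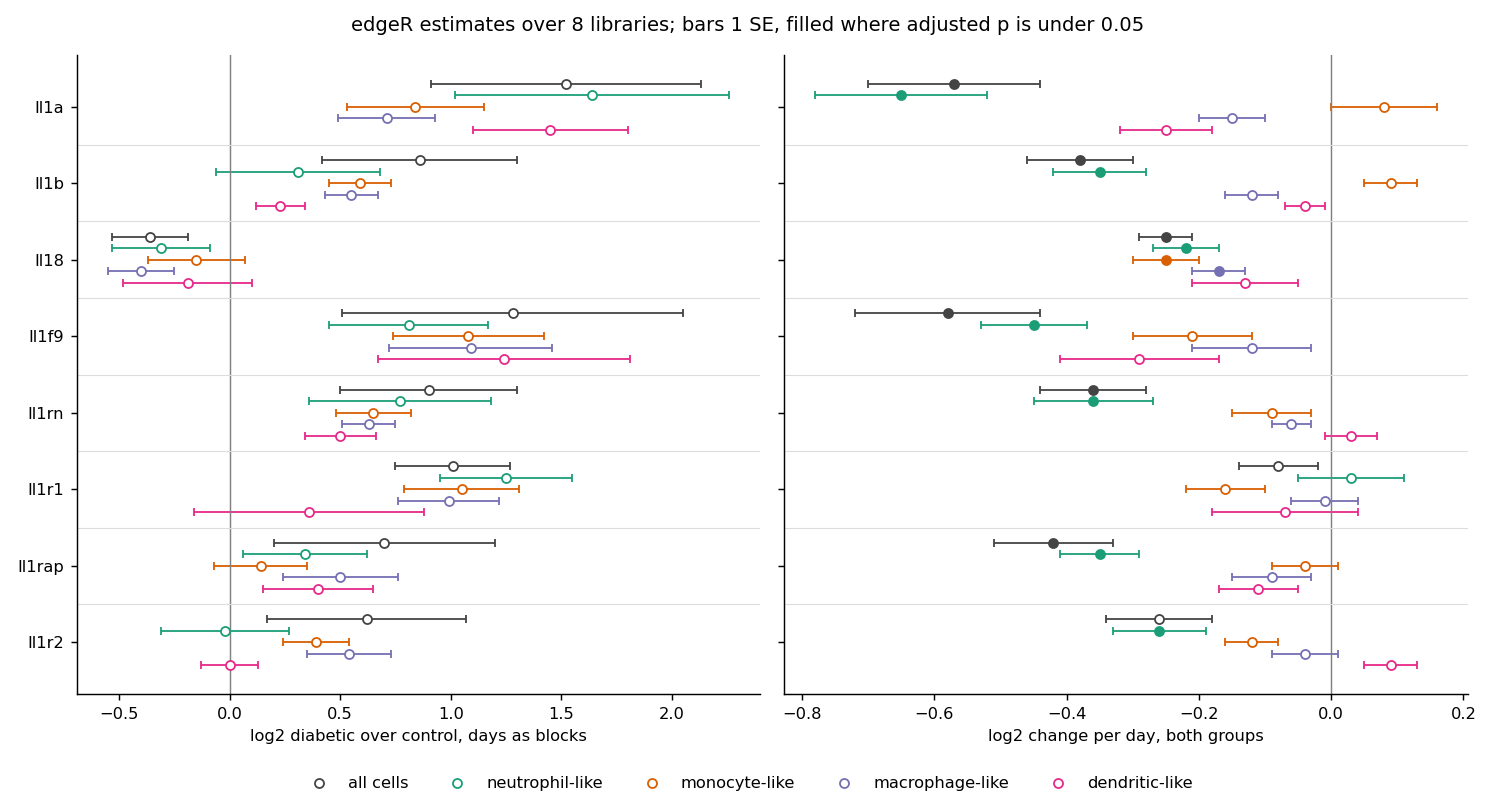
Estimates of edgeR for the 8 genes, as the log2 difference of diabetic over control and as the log2 change per day, with SE bars, in all cells and 4 classes. No group difference passes the adjusted threshold, and the changes per day of Il1a (-0.65), Il1f9 (-0.45), Il1rn (-0.36), Il1b (-0.35), Il1rap (-0.35), Il1r2 (-0.26) and Il18 (-0.22) do so in neutrophil-like cells.

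Most of the 8 genes fell with time in neutrophil-like cells. A straight line over days 1 to 7, shared by both groups, was fitted with condition as covariate. In neutrophil-like cells 7 of the 8 genes fell, in a class where 41.6% of 10131 genes passed the threshold, so the count is to be read against a broad change with day (when cells were named singly instead of by cluster, 2 of the 8 and 8.43% of all genes passed). Il1a fell by 0.65 ± 0.13 per day on the log2 scale (SE, edgeR adjusted p = 0.00303), Il1f9 by 0.45 ± 0.08 (adjusted p = 0.00141), Il1rn by 0.36 ± 0.09 (0.00856), Il1b by 0.35 ± 0.07 (0.00303), Il1rap by 0.35 ± 0.06 (0.00178), Il1r2 by 0.26 ± 0.07 (0.00737) and Il18 by 0.22 ± 0.05 (0.0044). Il1r1 was at 0.03 ± 0.08 per day (adjusted p = 0.776). The neutrophil markers of the same cells went from 62971 and 51321 CPM on day 1 to 16232 and 14261 on day 7.

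Over all cells 6 of the 8 fell with day, where 10.3% of genes passed: Il1f9 by 0.58 ± 0.14 per day (adjusted p = 0.0383), Il1a by 0.57 ± 0.13 (0.034), Il1rap by 0.42 ± 0.09 (0.0332), Il1b by 0.38 ± 0.08 (0.0328), Il1rn by 0.36 ± 0.08 (0.0363) and Il18 by 0.25 ± 0.04 (0.0239). Il1r2 was at -0.26 ± 0.08 (0.0793; DESeq2 called it, at 0.0107) and Il1r1 at -0.08 ± 0.06 (0.416). This count fell to 0 without the diabetic library of day 1 or of day 7 or the control library of day 1, and to 1 without the control library of day 7, where the genes called in all were 11, 3, 1 and 235 in place of 1378. In monocyte-like cells 1 gene fell, Il18 by 0.25 ± 0.05 (0.0331; 0.933% of genes passed), and likewise in macrophage-like cells, Il18 by 0.17 ± 0.04 (0.032; 1.66%). The monocyte-like call was lost without the diabetic library of day 1, 5 or 7 or the control library of day 5 or 7, and the macrophage-like call without the diabetic library of day 1 or 7 or the control library of day 1 or 7. In dendritic-like cells none passed (0.316% of genes did), with 2 at an unadjusted p under 0.05 (11.4% of genes) and 1 called by DESeq2 (1.69%). In monocyte-like cells Il1b was at 0.09 ± 0.04 per day (adjusted p = 0.405) and Il1a at 0.08 ± 0.08 (adjusted p = 0.703), and whether these slopes differ from those of neutrophil-like cells was not tested.

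The rest of the pathway was taken as a list of 45 genes, of which 40 were in the tables. None of those tested passed the threshold of edgeR for the group difference in any of the 5 sets. At an unadjusted p under 0.05 there were 10 of 38 in all cells, 7 of 35 in neutrophil-like, 7 of 33 in monocyte-like, 14 of 35 in macrophage-like and 3 of 35 in dendritic-like cells, and DESeq2 called 1, 1, 0, 3 and 0, beside the shares of all genes given above for each set and rule. With day, 1 of 38 tested rose and 13 fell over all cells, where 10.3% of all genes passed: 5 of 9 inflammasome genes, 2 of 12 signalling genes and 6 of 9 feedback and target genes fell. Csf3, the neutrophil growth factor, fell by 0.45 ± 0.08 per day (adjusted p = 0.026), the chemokine Cxcl2 by 0.36 ± 0.08 (0.0312), Nlrp3, the inflammasome sensor, by 0.34 ± 0.06 (0.0278) and Ptgs2 (COX-2) by 0.34 ± 0.07 (0.0279). Il1rl1, the IL-33 receptor, rose by 0.32 ± 0.08 (0.0381). Without the control library of day 1, 1 gene of all tested passed over all cells, so nearly all of these calls were lost. In neutrophil-like cells, where 41.6% of all genes passed, 1 of 35 rose (Il1rl1) and 20 fell, led by Csf3 (-0.54 ± 0.10, adjusted p = 0.00243), Il1f6, the gene of IL-36 alpha (-0.48 ± 0.13, 0.011), and Nfkbiz, an NF-kappaB cofactor (-0.40 ± 0.07, 0.00178). In macrophage-like cells 2 of 37 fell, Csf3 (-0.20) and Ptgs2 (-0.15), where 1.66% of all genes passed, and without the diabetic library of day 7 the genes called in all went from 179 to 9 (2 at clustering resolution 0.4). In monocyte- and dendritic-like cells none of the list passed, with 7 of 35 and 8 of 36 at an unadjusted p under 0.05 (13.4 and 11.4% of all genes) and 2 and 3 called by DESeq2 (3.19 and 1.69%).

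The machinery and the neighbouring receptors had their own cell classes. Nlrp3 had medians of 4290 CPM in neutrophil-like and 1422 in monocyte-like cells, with Il1b high in both, while Casp1, the enzyme that cuts IL-1 beta and IL-18, had 39.9 in neutrophil-like and 84.3 in monocyte-like cells. Of the IL-18 receptor chains, Il18r1 stood at 218 in T cell-like and 132 in NK cell-like cells, and Il18rap at 259 in NK cell-like and 117 in neutrophil-like cells. Il18bp, the soluble decoy of IL-18, had 27.5 in macrophage-like cells. Il1rl1 was highest in mast cell-like cells (1320) and reached 200 in T cell-like cells. Sigirr, an inhibitory receptor, had 22.7 in NK cell-like cells, and the alarmin Il33 had 149 in the 1 library with enough fibroblast-like cells.

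The genes most like each member were sought over 63 sums of class and library (10 classes, 3445 genes with a mean of at least 50 CPM), by Pearson's r of log2(CPM + 10). These sums share libraries, and r is given as a description. Il1a was most like Cxcl3 (0.93), Clec4e and Cdk5r1, Il1b like Ptgs2 (0.90), Cd24a and Nlrp3, and Il1rn like Cd14 (0.94), Clec4d and Slc7a11. Il1f9 was most like Chil1 (0.96), Rdh12 and Hcar2, Il1rap like Hcar2 (0.89), Rnf11 and G0s2, and Il1r2 like Snx20 (0.87), Lmnb1 and Themis2. Il18 was most like Bach1 (0.85), Gda and Itgam. Il1r1 stood apart from the others, with the T cell receptor chain Cd3g as its nearest gene at 0.71, followed by Rit1 and Cd3e. Among the 8 genes, r was 0.85 for Il1a with Il1rn and for Il1rap with Il1f9, and 0.01 for Il1a with Il1r1.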

How the data were processed

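The authors deposited 1 table of UMI counts per library, raw counts of genes by cells. Their methods name fastp, UMI-tools, STAR and Ensembl annotation, and the version listed for fastp, which the paper's methods do not give, is 0.20.1. The methods describe BD Rhapsody capture and the series record names another platform, and the labels list build mm9, so the platform and build are uncertain. Counting at the 3' end means that levels of different genes depend on capture as well as on amount.

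Cells with more than 200 genes and under 20% mitochondrial UMIs were kept. The total in the study's text is lower, while its listed cell numbers per cluster add up to nearly as many. Scanpy 1.11.5 clustered them (2000 variable genes, 10 principal components, 30 neighbours, Leiden resolution 0.8). Clusters were named by markers, with thresholds set after the clusters were seen. Scrublet called 0.193% of cells doublets, too few to rely on, so doublets were kept.

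UMIs were summed per class and library with at least 20 cells and tested with edgeR 4.0.16 (TMM, filterByExpr), DESeq2 1.42.0 being an alternative. Labels give no separate cultures or animals within a library. The p-values of the group test therefore rest on the spread of the day-wise differences between the groups. Those of the day trend rest on departures from a straight line shared by both groups. Intervals are exact 95% Poisson intervals. Tested on simulated data with the sums of the real libraries, the group test recovered 54 to 73% of 2-fold and 100% of 4-fold changes, depending on the class, and the day trend 14 to 48% of 2-fold and 95 to 98% of 4-fold changes between days 1 and 7.

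The members and lists were chosen with earlier results of these data known. The 8 members are always named. Of the pathway list, up to 5 genes with the largest change past the threshold per fit were eligible, plus 8 genes for their levels. For likeness the 3 genes of highest r are named.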

Additional observations from a re-analysis of the deposited data

How the results depend on the processing

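Day paired the groups in the test, and the fit without that block called 0 of the 8 genes in every class, as the blocked fit did, but the estimate of Il1a went from 1.64 to 0.28 in neutrophil-like and from 1.52 to 0.35 in all cells. No filter on low counts gave 2 (neutrophil-like), 5 (monocyte-like), 6 (macrophage-like) and 3 (dendritic-like) genes for the group difference and 2 each for the day trend in monocyte-, macrophage- and dendritic-like cells (2.63, 3.12 and 1.93% of all genes). DESeq2 gave 3 (group difference, macrophage-like), 1 (day trend, dendritic-like) and 7 instead of 6 (day trend, all cells). Naming cells singly gave 1 (group difference, macrophage-like, 0.08% of all genes) and 2 instead of 7 (day trend, neutrophil-like, 8.43% of all genes against 41.6%). The count for the day trend was 0 with 20 principal components or no mitochondrial filter (monocyte-like) and 0 at resolution 0.4, with 20 components or at 500 genes (macrophage-like). Leaving out 1 library gave 0 to 7 genes for the day trend in all cells, 5 to 7 in neutrophil-like, 0 to 1 in monocyte-like and 0 to 2 in macrophage-like cells. With 1 day left out, the group difference of Il1r2 in neutrophil-like cells ran from -0.23 (without day 5) to 0.14 (without day 3) and was 0.06 without day 7, and it was 0.03 at 500 genes. That of Il18 ran from -0.38 (without day 1) to 0.12 (without day 3) in monocyte-like cells and from -0.55 (without day 3) to 0.12 (without day 5) in dendritic-like cells, and that of Il1r1 in dendritic-like cells from -0.37 (without day 3) to 0.91 (without day 5). Il1rap in neutrophil-like cells turned to -0.05 with cells named singly. The cause was not tested. The class with the highest median was the same for 7 of 8 genes with cells named singly or at resolution 0.4, Il18 moving to monocyte-like cells. Without thinning, the share of cells with a UMI was 99.0% (Il1b) and 90.7% (Il1r2) in neutrophil-like, 84.6% (Il1r2) in dendritic-like and 23.0% (Il1r1) in T cell-like cells. Removing the 5% of cells with the highest doublet scores, chosen after seeing the data, moved none of these counts. Of the summary values recomputed, 143 were scored as unchanged and 36 as moved. Counts had to be equal or within 1.5 times, so a count of 0 that stayed at 0 was scored as unchanged. The difference in antagonist share had to keep its sign, and shares of cells had to lie within their interval. The class with the highest median had to be the same for all 8 genes. Over all genes, DESeq2 called 89 against 0 (group difference) and 2846 against 1378 (day trend) in all cells, 38, 12, 146 and 13 against 0, 0, 6 and 1 for the group difference by class, and no filter 131, 83, 326 and 119. The day trend over all genes ranged from 1 to 1621 called in all cells, from 2116 to 4976 in neutrophil-like, from 1 to 279 in monocyte-like, from 9 to 328 in macrophage-like and from 0 to 111 in dendritic-like cells when 1 library was left out, against 91, 179 and 30 in the last 3 with all libraries. Precision is limited by having 1 library per group and day, and for Il1r1 and Il18 also by counts.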

Other observations

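Outside the larger classes, mast cell-like cells (96 cells in the 4 libraries with enough of them) held Il1b at a median of 2555 CPM, with a range of 566 to 4205. T cell-like cells of the same 4 libraries were lower in 3 and higher in 1, with a median ratio of T cell-like to mast cell-like of 0.467. The IL-33 receptor Il1rl1 stood at 999 to 2289 in the same cells, and Il6, a cytokine that IL-1 and IL-33 can induce, ranged from 147 to 7264, from few cells per library. Il6 was chosen here after its values were seen.

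Osteoclast-like cells (381 cells in 4 libraries), named by Ctsk, Acp5 and Mmp9, had medians of 282 for Il1b, 31.5 for Il1a and 348 for Il1rn. In the same 4 libraries Il1b was higher in neutrophil-, monocyte-, macrophage-, dendritic- and T cell-like cells in 4 of 4 (median ratios over osteoclast-like cells 29.2, 16.7, 4.04, 8.29 and 1.63). Il1a was higher in the first 3 of these classes in 4 of 4 and in dendritic-like and T cell-like cells in 3 of 4 (ratios 1.47 and 1.24). The cluster without a name (3026 cells, median depth 909.5 UMIs) held Il1b at 1073 to 2715 and Il1rn at 502 to 1197. It took part in the sums over all cells and in the search for the genes most like each member, and it was not tested as a class.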
